A study of Mus musculus with 18 samples.

Results

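The genes described here encode the enzymes that copy DNA and those that supply its building blocks. A list of 47 genes was matched by gene name to the 36451 gene identifiers of the deposited table, and all 47 were found. They were followed in mouse colon over 18 RNA-seq libraries, 6 from each of 3 groups called Control, Model and AKK in the labels. The question of the series was whether Akkermansia muciniphila (AKK), a gut bacterium that feeds on mucin, affects colitis through ferroptosis, an iron-dependent form of cell death. Control mice were male C57BL/6J, 6 weeks old and given no stated treatment. Model mice drank 3% dextran sulfate sodium (DSS), a polymer that injures the colon lining, for 1 week and received PBS by gavage. AKK mice received the bacterium weekly by gavage, 0.1 mL each time, over 6 weeks. DSS is stated for the Model group only, and the sources used here do not say whether AKK mice drank it. Strain, sex and age are stated for Control only, and a difference in any of them cannot be told apart from the treatments. The series description also names Erastin, a ferroptosis inducer, but no library is labelled with it. No label ties each library to its own animal, so the p-values measure the spread between libraries, part of which may be technical.

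A dividing cell licenses its replication origins in G1 phase, when the origin recognition complex (ORC), Cdc6 and Cdt1 load the MCM ring onto DNA. In S phase Mcm10, Cdc45 and the GINS complex turn the ring into an active helicase, and polymerases with their sliding clamp Pcna copy both strands. In the colon this happens mainly in the lower crypt, where stem cells and their daughters divide to renew the epithelium. Many of these genes are switched on at the start of S phase by E2F transcription factors, which bind short words in promoters.

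RefSeq promoter sequences on GRCm38.p6, the assembly behind mm10, spanned 250 bases before to 50 bases after the start site and were found for 39 of the 47 genes. They were searched on both strands for the E2F words TTTCCCGC, TTTCGCGC, TTTGCCGC and TTTGGCGC. At least 1 word was present in 15 of 39 (38.5%), against 448 of 10005 (4.48%) of the tested genes with a promoter and 704 of 27025 (2.61%) of all genes with one. A word lay wholly before the RefSeq start site in 9 of them, and these stretches are shown to make the shared letters visible. Each is 5′ to 3′ on the strand of the gene, and the capitals mark E2F words or their complements. Stretches of 60 bases are given where the word lies before the deposited span of the gene, and of 28 bases where that span reaches over or close to the word.
Orc1 (chr4:108579417-108579444, plus strand): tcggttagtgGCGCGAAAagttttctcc
Orc3 (chr4:34614950-34615009, minus strand): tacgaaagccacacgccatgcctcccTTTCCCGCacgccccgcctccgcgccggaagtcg
Cdc6 (chr11:98908003-98908030, plus strand): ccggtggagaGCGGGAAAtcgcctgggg
Mcm5 (chr8:75109334-75109393, plus strand): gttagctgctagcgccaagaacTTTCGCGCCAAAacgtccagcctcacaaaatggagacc
Mcm6 (chr1:128359719-128359778, minus strand): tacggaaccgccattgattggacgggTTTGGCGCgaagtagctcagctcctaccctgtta
Mcm7 (chr5:138172031-138172058, minus strand): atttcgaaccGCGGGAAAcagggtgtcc
Gins3 (chr8:95633508-95633535, plus strand): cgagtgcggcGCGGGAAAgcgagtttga
Pola1 (chrX:93632260-93632319, minus strand): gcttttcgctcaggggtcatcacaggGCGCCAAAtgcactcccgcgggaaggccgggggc
Rfc3 (chr5:151651209-151651236, minus strand): ggaagtgacgtcgcacgcTTTCGCGCtc
In the Mcm5 stretch 2 words overlap on opposite strands, which makes the capitals longer there. A word was present in 8 of the 22 promoters of genes that were lower in Model (36.4%) and in 7 of the 17 of genes that were not called (41.2%), a difference that was not tested. The CCAAT pentamer, the NF-Y word, was present in 24 of 39 (61.5%), against 42.4% of tested genes. A match is a count of letters and was not tested for binding, and a promoter without one says nothing about the factor.

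Depth ranged from 53873744 to 65705141 counts in Control, from 58841661 to 79147073 in Model and from 60665457 to 82589848 in AKK. 2 Model libraries stood apart. Model_1337 had 4549 summed FPKM of squamous epithelium markers, against at most 1.24 in every other library, and a pan-epithelial sum of 954. Model_1341 drew 17.0% of its counts from mitochondrial genes, against 3.93% to 8.59% elsewhere. Without both libraries, 28 of the 47 genes were lower in Model against Control and 26 in AKK against Control, beside 26 and 10 with them. Calls over all tested genes were then 2715 and 2563, beside 2811 and 869, and the median log2 changes of the 47 were -0.55 and -0.39, beside -0.50 and -0.37. A gene on the opposite strand with a median FPKM of at least 1 overlapped 12 of the 47, among them Rfc4 (Eif4a2, median 79.7), Rnaseh2a (Prdx2, 41.2) and Mcm7 (Cops6, 23.2). The libraries were strand-marked per the labels, but the sources used here do not say whether the counting used the strand, which leaves the values of these 12 uncertain. Orc5 is overlapped on its own strand by Gm15421 (median FPKM 1.44), which strand-aware counting would not separate, so its values are uncertain too. Of these 12, 7 were lower in Model, and of the other 35, 19 were.

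All 47 genes passed the filter of an FPKM (a level per transcript length and library size, so that different genes can be compared) of at least 1 in at least 6 libraries. In 42 of them every library was at 1 or above. Pole was the exception that bears on a call. It passed with 4 Control, 1 Model and 1 AKK libraries, so its entry leaned on the group in which it was highest. Pcna had the highest FPKM of the 47 and Pole the lowest in 18 of 18 libraries. The order within a complex was steady too, with Mcm6 highest and Mcm2 lowest of the MCM ring in 18 of 18 libraries.

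In Model against Control, 26 of the 47 genes were lower and 0 were higher at an adjusted p under 0.05 (edgeR). The background was 7.67% of 14007 tested genes lower and 12.4% higher (20.1% in either direction), and the share lower among the 47 was 55.3%. At an unadjusted p under 0.05, 33 were lower and 0 higher, against 15.1% and 20.2% of all tested genes. The median log2 change of the 47 was -0.50, beside -0.0004 over all tested genes, and 45 were below 0, as were 50% of all tested genes. A fit of Control and Model alone called 12 of the 47 and 939 of all tested genes, beside 2811, and the median of the 47 was -0.50 there too. Of all called genes, 61.8% were higher in Model, but 35.4% with limma on log2(TPM + 1), where 17 of the 47 were lower. The calls lay in every role: 3 of 9 licensing genes, 5 of 6 MCM ring genes, 4 of 6 helicase activators, 3 of 9 polymerase and primase genes, 4 of 6 clamp and loader genes, 2 of 3 single-strand binding genes, 2 of 4 Okazaki fragment genes and 3 of 4 nucleotide supply genes. In whole tissue, fewer dividing cells and less RNA per dividing cell cannot be told apart.

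**Figure D1:**
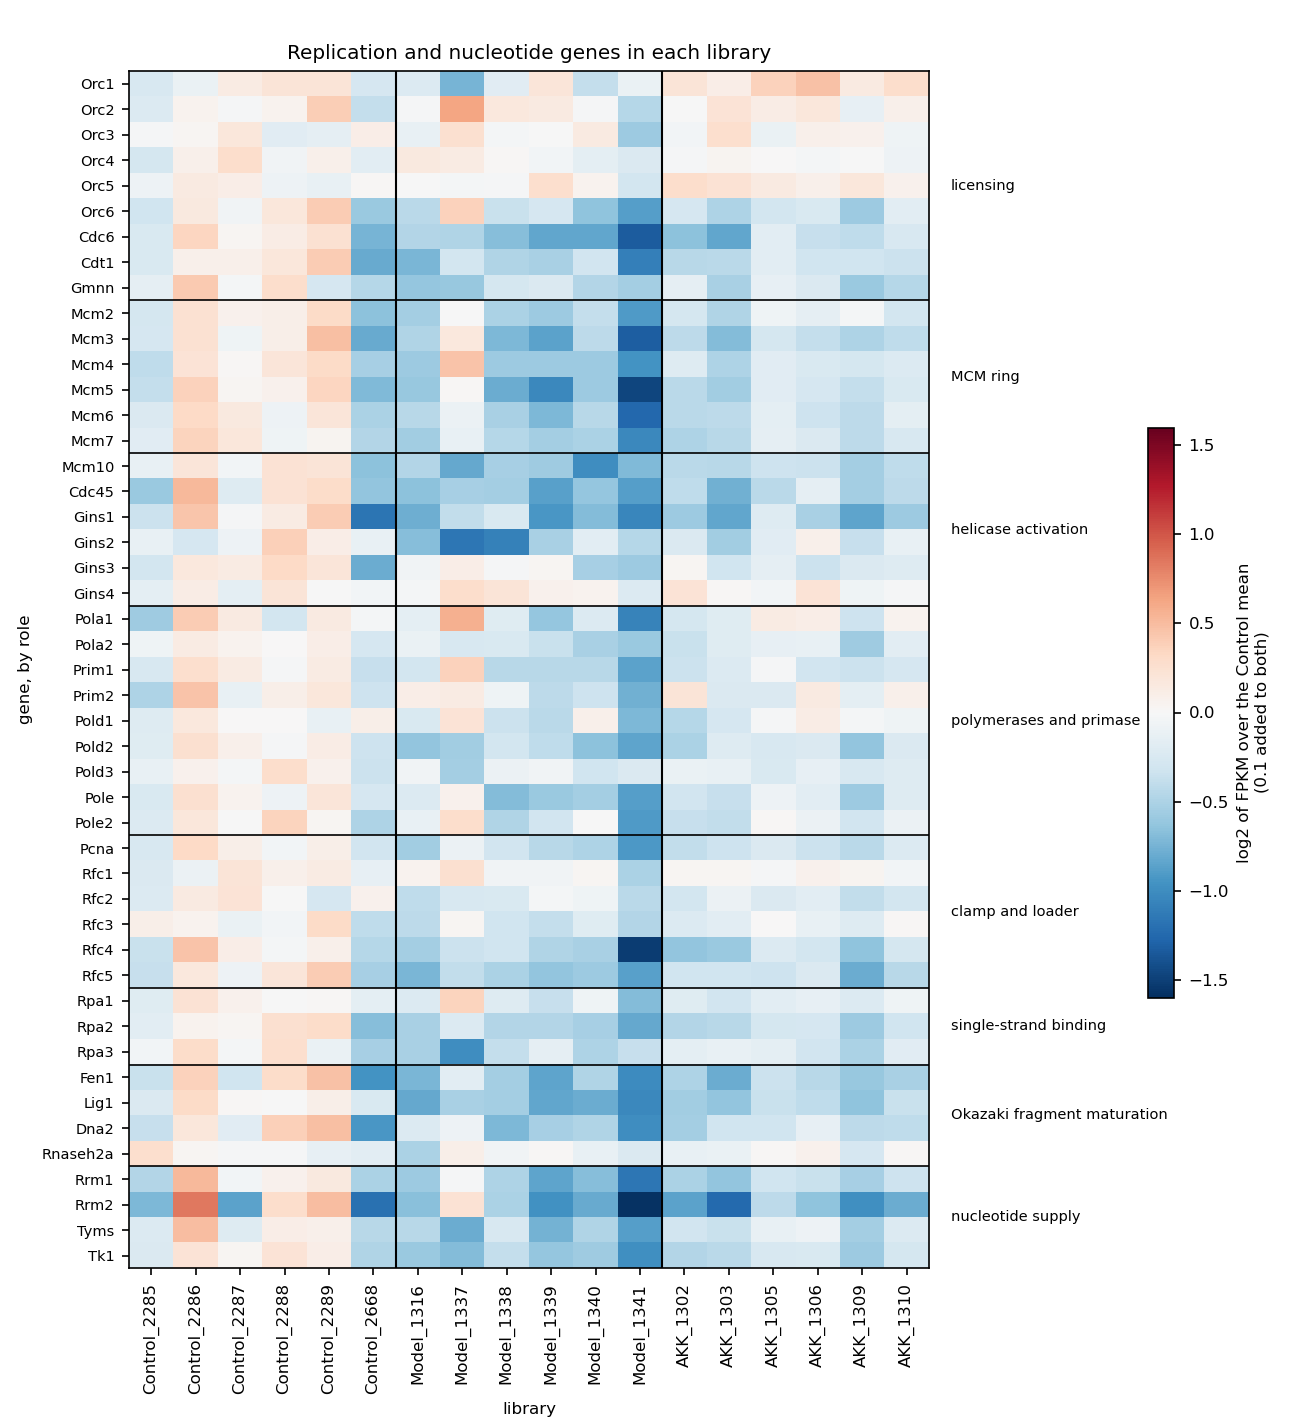
Level of each of the 47 genes (rows, grouped by role) in each library (columns), as log2 of FPKM over the Control mean with 0.1 added to both; blue is lower and red higher than that mean. Most Model columns are blue over most rows, Model_1341 is the darkest with a median of -0.87 over the 47 genes, and Orc3 to Orc5 and Gins4 are near white in most libraries.

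The summed FPKM of the 47 genes ran from 275 to 448 in Control (median 385), from 210 to 341 in Model (median 275) and from 277 to 326 in AKK (median 305). The groups overlapped through more than 1 Control library. Control_2668, the lowest Control library in 36 of the 47 genes, lay at 275. Control_2285 lay at 314, below Model_1337 at 341 and AKK_1305 at 326. Model_1341 was the lowest Model library in 40 genes and Model_1337 the highest in 31. The median coefficient of variation of the 47 genes was 20.4% in Control, 20.7% in Model and 9.89% in AKK, so the AKK libraries lay closer to each other.

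Of the 9 licensing genes, Cdc6, Cdt1 and Gmnn were lower in Model. Cdc6, the ATPase that brings the MCM ring to ORC (chromosome 11, 98907801-98923940, plus strand, mm10), had an FPKM of 1.12 to 2.51 in Control (median 2.07), 0.716 to 1.39 in Model (median 1.12) and 1.06 to 1.72 in AKK (median 1.47). All 6 Model libraries lay below all Control libraries but Control_2668, which stood at 1.12. Its log2 change in Model was -0.85 ± 0.18 (SE), the steepest of the 47, with an adjusted p of 0.0060. Cdt1, the partner of Cdc6 in loading, changed by -0.60 ± 0.16 (adjusted p = 0.015). Gmnn, the geminin that holds Cdt1 in check, changed by -0.49 ± 0.15 (adjusted p = 0.032). Both the activator and its inhibitor were lower, and their log2 ratio differed by -0.10 between the groups (exact two-sided permutation test, p = 0.66, adjusted 0.84).

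None of the 6 ORC genes was called in Model. Orc5, a core ORC subunit (chromosome 5, 22486485-22550429, minus strand), had an FPKM of 2.62 to 3.14 in Control (median 2.78), 2.30 to 3.44 in Model (median 2.83) and 2.98 to 3.49 in AKK (median 3.19). The groups overlapped almost wholly, and the change in Model was -0.04 ± 0.08. Orc2, Orc3 and Orc4, also of the core, had log2 changes of 0.06, -0.08 and -0.05, and the signs of Orc2, Orc4 and Orc5 turned under some settings. Orc1 and Orc6, at -0.25 ± 0.15 and -0.38 ± 0.17, also missed the threshold.

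Of the MCM ring, the motor of the replicative helicase, 5 of 6 were lower in Model, with log2 changes of -0.73 (Mcm5) to -0.52 (Mcm2) among the called. Mcm7 (chromosome 5, 138164583-138172422, minus strand) had an FPKM of 8.45 to 15.1 in Control (median 11.7), 5.70 to 10.8 in Model (median 8.14) and 8.37 to 10.7 in AKK (median 9.32). In Model it changed by -0.57 ± 0.12 (adjusted p = 0.0069). Mcm4 (chromosome 16, 15623897-15637400, minus strand) was the ring gene not called. Its FPKM was 7.44 to 13.4 in Control (median 11.7) and 5.52 to 14.8 in Model (median 7.20), where 5 libraries lay at or below 7.20 and Model_1337 alone stood at 14.8. In AKK it was 7.66 to 9.54 (median 9.20). The Model change was -0.46 ± 0.18 with an adjusted p of 0.083, and 0.0045 without Model_1337.

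Of the 6 helicase activators, 4 were lower in Model. Mcm10, which helps to start unwinding (chromosome 2, 4989714-5012791, minus strand), had an FPKM of 1.69 to 3.22 in Control (median 2.89), 1.32 to 1.93 in Model (median 1.72) and 1.84 to 2.15 in AKK (median 2.01). Only Control_2668 reached down into the Model range. The Model change was -0.73 ± 0.14 (adjusted p = 0.0038). Cdc45, Gins1 and Gins2 were lower as well, with log2 changes of -0.74, -0.72 and -0.67. Gins3 and Gins4, of the same 4-subunit complex, were not called. Gins4 (chromosome 8, 23226616-23237659, minus strand) had an FPKM of 9.74 to 12.6 in Control (median 10.7), 9.35 to 13.3 in Model (median 11.4) and 10.3 to 12.7 in AKK (median 10.9). Its change in Model was 0.03 ± 0.09, and its sign turned under several settings.

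**Figure D2:**
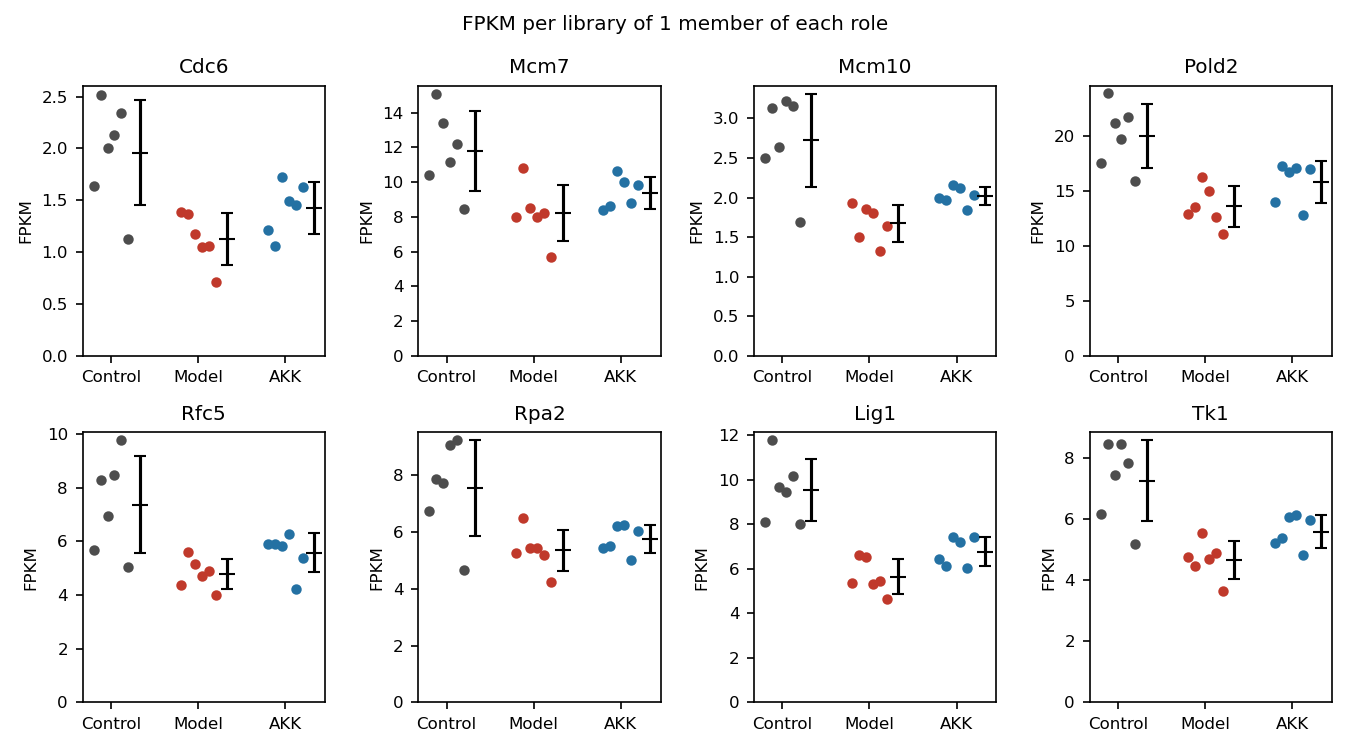
FPKM in each library (points) of the gene with the lowest p in each role, with the group mean and SD (bars) beside the points and the y axis from 0. Lig1 is the gene whose Control and Model libraries do not overlap, at 8.02 to 11.8 and 4.63 to 6.62. Over all tested genes 1.37% were lower in Model without overlap.

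Of the 9 polymerase and primase genes, 3 were lower in Model, and their median log2 change was -0.27. Pold2, an accessory subunit of polymerase delta (chromosome 11, 5872180-5878292, minus strand), had an FPKM of 15.9 to 23.9 in Control (median 20.5), 11.1 to 16.3 in Model (median 13.2) and 12.8 to 17.3 in AKK (median 16.8). In Model it changed by -0.60 ± 0.11 (adjusted p = 0.0031). Pola2, the accessory subunit of polymerase alpha, changed by -0.39 ± 0.10 (adjusted p = 0.011). Pole, the leading strand polymerase, changed by -0.54 ± 0.15 (adjusted p = 0.018). It passed the filter with 4 Control, 1 Model and 1 AKK libraries, so its call leans on the group in which it was highest. The other 6, the catalytic subunits Pola1 and Pold1, the primase subunits Prim1 and Prim2, and Pold3 and Pole2, had log2 changes of -0.37 to -0.24 and were not called. Pola1 (chromosome X, 93304767-93632155, minus strand) had an FPKM of 1.11 to 2.28 in Control (median 1.78), 0.761 to 2.56 in Model (median 1.46) and 1.33 to 1.87 in AKK (median 1.62), and its Model libraries spread over the whole Control range.

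Pcna, the ring that tethers polymerases to DNA, had a mean FPKM of 42.2 ± 6.93 (SD, n = 6, as for the following) in Control. The mean was 30.9 ± 5.81 in Model and 33.6 ± 2.06 in AKK. The Model change was -0.50 ± 0.11 (adjusted p = 0.0066). A processed copy, Pcna-ps2, reached at most 1.81 FPKM, and the reads it may share with Pcna are a source of uncertainty. Of the replication factor C subunits that load the clamp, Rfc3, Rfc4 and Rfc5 were called, Rfc2 lay just outside at an adjusted p of 0.054, and Rfc1 was not called. Rfc5 (chromosome 5, 117378103-117389047, minus strand) had an FPKM of 5.06 to 9.77 in Control (median 7.62), 3.996 to 5.59 in Model (median 4.80) and 4.22 to 6.27 in AKK (median 5.86), with a Model change of -0.66 ± 0.14 (adjusted p = 0.0062). Rfc1 (chromosome 5, 65261850-65335621, minus strand), the large subunit, had an FPKM of 5.51 to 7.48 in Control (median 6.47), 4.56 to 7.76 in Model (median 6.46) and 6.29 to 6.82 in AKK (median 6.62), and its log2 change in Model was -0.07 ± 0.08.

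Replication protein A coats single-stranded DNA. Rpa2 (chromosome 4, 132768332-132778752, plus strand) had an FPKM of 4.67 to 9.25 in Control (median 7.80), 4.25 to 6.503 in Model (median 5.35) and 5.02 to 6.26 in AKK (median 5.78). The Model change was -0.54 ± 0.13 (adjusted p = 0.010), and that of Rpa3 was -0.49 ± 0.16 (adjusted p = 0.041). Rpa1, the large subunit (chromosome 11, 75298166-75348324, minus strand), had an FPKM of 7.91 to 10.6 in Control (median 9.07), 5.54 to 11.6 in Model (median 7.80) and 7.29 to 8.65 in AKK (median 7.94), and was not called at -0.22 ± 0.11.

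Lig1, the ligase that seals Okazaki fragments (chromosome 7, 13277283-13311433, plus strand), had the lowest p of the 47 in Model. Its FPKM was 8.02 to 11.8 in Control (median 9.57), 4.63 to 6.62 in Model (median 5.40) and 6.05 to 7.44 in AKK (median 6.81). Every Model and every AKK library lay below the lowest Control library, and Lig1 was the 1 member of the 47 for which this held, against 1.37% of tested genes lower without overlap in Model and 1.01% in AKK. A count of 1 in 47 is near that share, so it is not a result about the 47 genes. The Model change was -0.80 ± 0.10 (adjusted p = 0.00053). Fen1, which trims the flap ahead of the ligase, changed by -0.66 ± 0.20 (adjusted p = 0.027). The helicase-nuclease Dna2 missed at an adjusted p of 0.060. Rnaseh2a, the catalytic subunit of the enzyme that removes RNA from DNA (chromosome 8, 84956610-84969767, minus strand), had an FPKM of 5.39 to 7.33 in Control (median 5.99), 4.25 to 6.47 in Model (median 5.73) and 5.03 to 6.35 in AKK (median 5.87), with a change of -0.16 ± 0.10 in Model.

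In nucleotide supply, Tk1, which salvages thymidine (chromosome 11, 117815526-117826092, minus strand), had an FPKM of 5.19 to 8.47 in Control (median 7.65), 3.64 to 5.55 in Model (median 4.74) and 4.83 to 6.12 in AKK (median 5.67). This was a change of -0.68 ± 0.12 in Model (adjusted p = 0.0023). Tyms, which makes thymidylate, changed by -0.65 ± 0.15 (adjusted p = 0.0093) and Rrm1, the large subunit of ribonucleotide reductase, by -0.66 ± 0.17 (adjusted p = 0.014). Rrm2, the small subunit (chromosome 12, 24708241-24714146, plus strand), had the highest coefficient of variation of the 47 in each group, with a range from 5.59 to 23.3 FPKM in Control (median 11.8), 4.28 to 15.3 in Model (median 7.74) and 5.41 to 9.64 in AKK (median 7.25). Control itself held 3 libraries at 7.84 or below and 3 at 15.7 or above, and the change of -0.69 ± 0.32 was not called (adjusted p = 0.14).

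**Figure D3:**
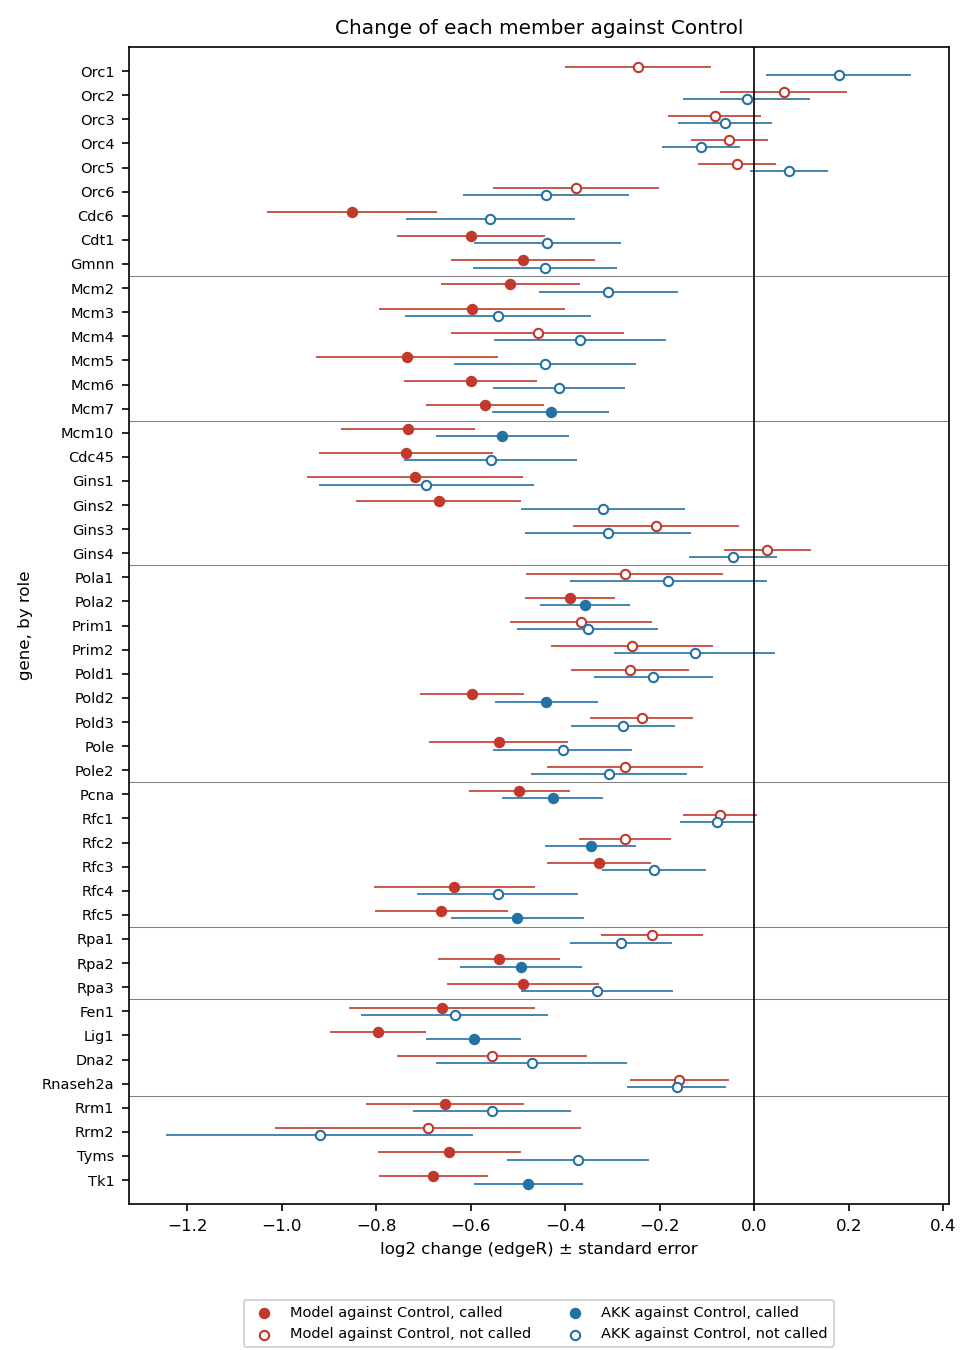
log2 change of each of the 47 genes against Control (edgeR, ± SE) in Model (red) and AKK (blue), with filled points called at an adjusted p under 0.05. Both sets of points lie left of 0 for nearly all genes, and 26 red and 10 blue points are filled.

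In AKK against Control, 10 of the 47 were lower and 0 higher, a share of 21.3% against a background of 2.48% of tested genes lower and 3.72% higher (6.2% in either direction). At an unadjusted p under 0.05, 29 were lower and 0 higher, against 12.4% and 13% of tested genes. The median log2 change was -0.37, beside -0.01 over all tested genes, and 45 were below 0, as were 51.5% of tested genes. Both comparisons use the same Control libraries, so their changes are given side by side and not as independent evidence. The called genes were Mcm7, Mcm10, Pola2, Pold2, Pcna, Rfc2, Rfc5, Rpa2, Lig1 and Tk1. Lig1 changed by -0.59 ± 0.10 (adjusted p = 0.0040), against -0.80 ± 0.10 in Model. Tk1 changed by -0.48 ± 0.12 (adjusted p = 0.025), against -0.68 ± 0.12 in Model. No licensing gene was called, and Cdc6 had a log2 change of -0.56 ± 0.18 (adjusted p = 0.068).

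This count depended on single libraries. It was 26 without Control_2668, 22 without Model_1337, 6 without AKK_1303 or AKK_1305, 3 without Control_2289, 2 without AKK_1306 or AKK_1310, and 1 without Control_2286, Control_2288, AKK_1302 or AKK_1309. Calls over all tested genes, 869 with every library, moved in the same direction in these fits, to 1578 without Control_2668, 2132 without Model_1337 and between 288 and 739 in the others. Over the 18 fits the median log2 change of the 47 stayed between -0.47 and -0.34. Lig1 was the 1 gene of the 10 called in all 18 fits that each left out 1 library. In Model against Control the same fits gave 20 to 32 calls, and 19 of the 26 genes were called in all 18. Calls over all tested genes moved there too, beside 2811 with every library. They were 1743 without Control_2286 (20 of the 47), 3304 without Control_2668 (32) and 3408 without Model_1341 (25). The median log2 change of the 47 stayed between -0.59 and -0.43. With counts scaled by library totals alone the AKK count was 1 and the share of all called genes that were higher was 84.8%, beside 60.0%. The 4 libraries above 70000000 counts were Model_1341, AKK_1306, AKK_1309 and AKK_1310. Without them 0 of the 47 and 56 of all tested genes were called, with a median of the 47 of -0.37. Leaving them out also made the AKK group smaller, so depth and group size cannot be told apart there.

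**Figure D4:**
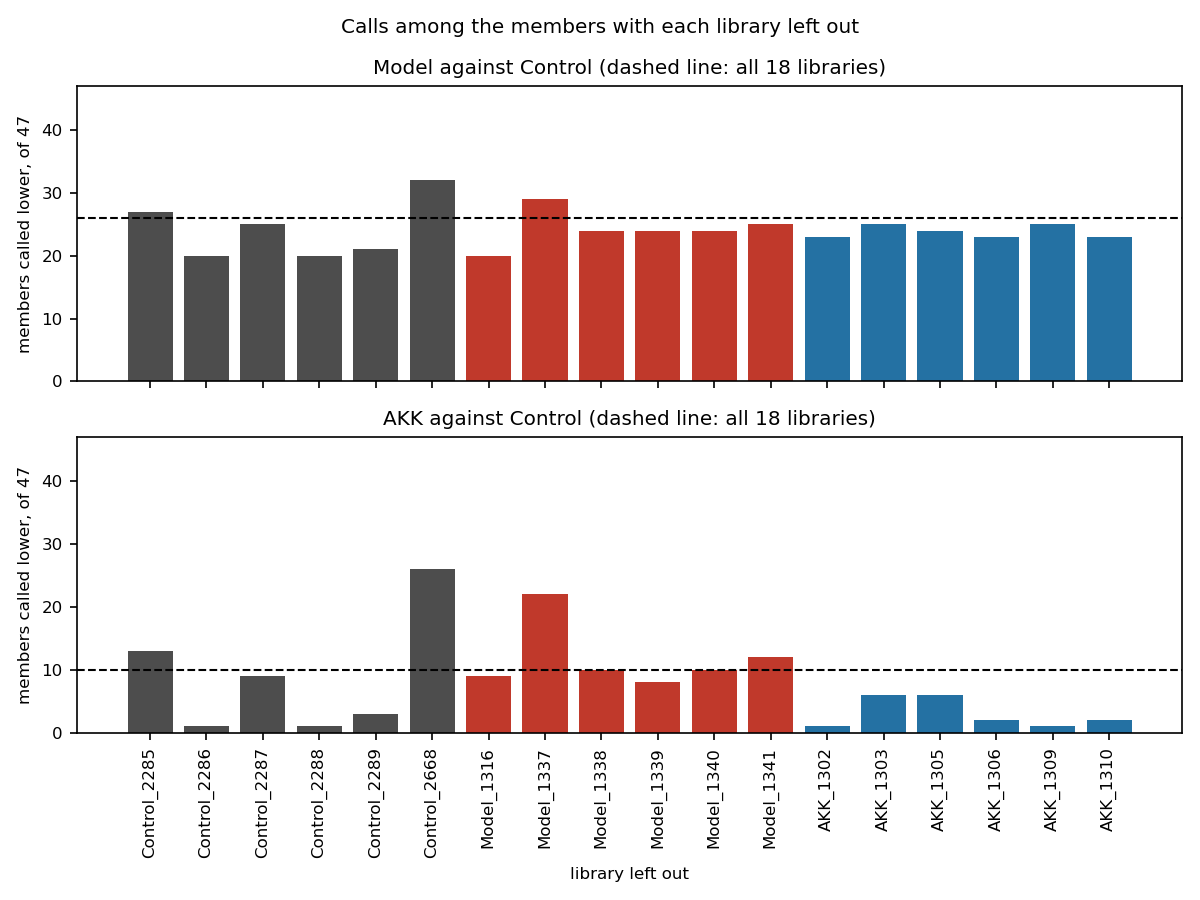
Number of the 47 genes called lower (y axis) with each library left out in turn (x axis), for Model and for AKK against Control; dashed lines mark the counts of 26 and 10 with all libraries. The Model count stays between 20 and 32, while the AKK count runs from 1 to 26. Calls over all tested genes ran from 1743 to 3408 in Model and from 288 to 2132 in AKK in these fits.

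In AKK against Model, 0 of the 47 were called in either direction (edgeR), against a background of 0.0214%, or 3 of 14007 tested genes. DESeq2 and limma also gave 0. At an unadjusted p under 0.05, 1 was higher and 0 lower, against 2.44% of tested genes higher and 4.28% lower. That gene was Orc1, the ORC subunit whose level follows the cell cycle. Its FPKM was 1.99 to 2.81 in Control (median 2.46), 1.41 to 2.77 in Model (median 2.104) and 2.62 to 3.40 in AKK (median 2.88). The Model and AKK ranges overlapped only through Model_1339, and the log2 change was 0.42 ± 0.15 with an adjusted p of 0.72. The median log2 change of the 47 was 0.09, beside -0.02 over all tested genes, and 35 were above 0, where 55.2% of all tested genes were below it. This lean depended on single libraries. The median was 0.02 with 18 of the 47 below 0 without Model_1341, and 0.14 with 7 below 0 without Model_1337. For Lig1 the log2 change was 0.20 ± 0.10 and for Cdc6 0.29 ± 0.18, and a p that misses the threshold does not show that AKK and Model were alike.

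Within-complex log2 ratios of FPKM (0.1 added) depend little on scaling between libraries. 3 ratios in 3 comparisons gave 9 exact two-sided permutation tests, whose smallest possible p is 0.0022. Orc1 over the mean of Orc2 to Orc5 was -0.99 ± 0.44 in Model and -0.55 ± 0.17 in AKK (SD, n = 6 each), a difference of 0.44 (exact permutation p = 0.030, adjusted 0.14). Model_1337 was the lowest Model library here at -1.74. With 1 library left out the difference ran from 0.29 (without Model_1337) to 0.54 (without Model_1341). Rrm2 over Rrm1 was 0.91 ± 0.22 in Model and 0.62 ± 0.18 in AKK, a difference of -0.29 (exact permutation p = 0.030, adjusted 0.14). No ratio passed after adjustment.

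Other genes of the pathway were counted from 3 lists, against the same background of 7.67% lower in Model and 2.48% in AKK. Of 17 tested genes of S phase entry and origin firing, 8 were lower in Model and 3 in AKK, and 0 were higher, with a median log2 change of -0.43 in Model. E2f8, a repressor that is itself an E2F target, went from 5.26 ± 1.64 FPKM in Control to 2.27 ± 0.42 in Model (SD, n = 6 each), a log2 change of -1.24 ± 0.19 (adjusted p = 0.0013). Of 22 tested genes of the fork and of chromatin assembly, 11 were lower in Model and 7 in AKK, with a median of -0.34 in Model. Chtf18, of an alternative clamp loader, changed by -0.85 ± 0.15 (adjusted p = 0.0024). Of 27 genes of other nucleotide synthesis, 5 were lower in Model and 0 in AKK, where Impdh1 (named after its value was seen) was higher, and the median in Model was -0.10. Mthfd1 of folate metabolism changed by -0.66 in Model.

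Markers of dividing cells were lower as well, though not alone in this. All 5 (Mki67, Top2a, Birc5, Ccnb1 and Cdk1, with Top2a also in the fork list) were lower in Model and 4 in AKK, and their summed FPKM was 42.5 to 82.7 in Control, 30.7 to 42.5 in Model and 34.4 to 47.1 in AKK. Control was split in these sums. Control_2668, Control_2285 and Control_2287 lay at 42.5, 45.9 and 47.1, near the highest AKK libraries, and Control_2288, Control_2286 and Control_2289 at 77.1, 81.4 and 82.7. None of 10 pan-epithelial markers was called, with sums of 4069 to 5676, 954 to 4178 and 3276 to 3862. All 10 were below 0 in Model, 4 of them at an unadjusted p under 0.05, with a median log2 change of -0.55, beside -0.50 for the 47. In AKK 9 of the 10 were below 0, 1 of them at an unadjusted p under 0.05, with a median of -0.47, beside -0.37. Of 6 colon crypt stem markers, 1 was lower (Cdca7) and 1 higher (Smoc2) in Model and in AKK, both named after their values were seen, and the medians were -0.47 and -0.12. Of 6 mature colonocyte markers, 1 was lower in Model and 0 in AKK, and 5 and 4 were below 0. Their medians were -0.81 and -0.85, with sums of 3253 to 11208 in Control, 355 to 9398 in Model and 2060 to 6987 in AKK. Of 6 goblet markers 0 were called, with medians of -0.09 and 0.42. Smooth muscle markers were higher in Model for 3 of 6, with sums of 690 to 2504 in Control, 1375 to 3830 in Model and 1444 to 2188 in AKK. Fibroblast markers were higher in Model for 5 of 6 (142 to 191 in Control, 177 to 693 in Model), endothelial for 4 of 4 and B cell for 4 of 4 (2.94 to 6.40 in Control, 7.39 to 150 in Model). In AKK, 4 of 6 fibroblast (318 to 550), 2 of 4 endothelial, 3 of 4 B cell (14.5 to 55.9) and 0 of 6 smooth muscle markers were higher. Plasma cell markers were higher for 3 of 4 in Model and 2 in AKK. T cell markers were higher for 1 of 4 and 0, and germinal centre B cell markers for 1 of 3 tested and 0. No marker of these lists was at 0 in all libraries. The part of these other cells in the lower levels was not tested. With the smooth muscle level as a covariate, 1 of the 47 was called in Model and in AKK, Lig1 both times, at -0.69 (adjusted p = 0.021) and -0.54 (adjusted p = 0.019). Calls over all tested genes fell to 172 in Model and 373 in AKK in that fit, while the median of the 47 was -0.37 and -0.34, with 41 and 44 of the 47 below 0. With the pan-epithelial level as a covariate the counts were 20 and 16, those over all tested genes 859 and 1078, and the medians of the 47 -0.59 and -0.41.

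**Figure D5:**
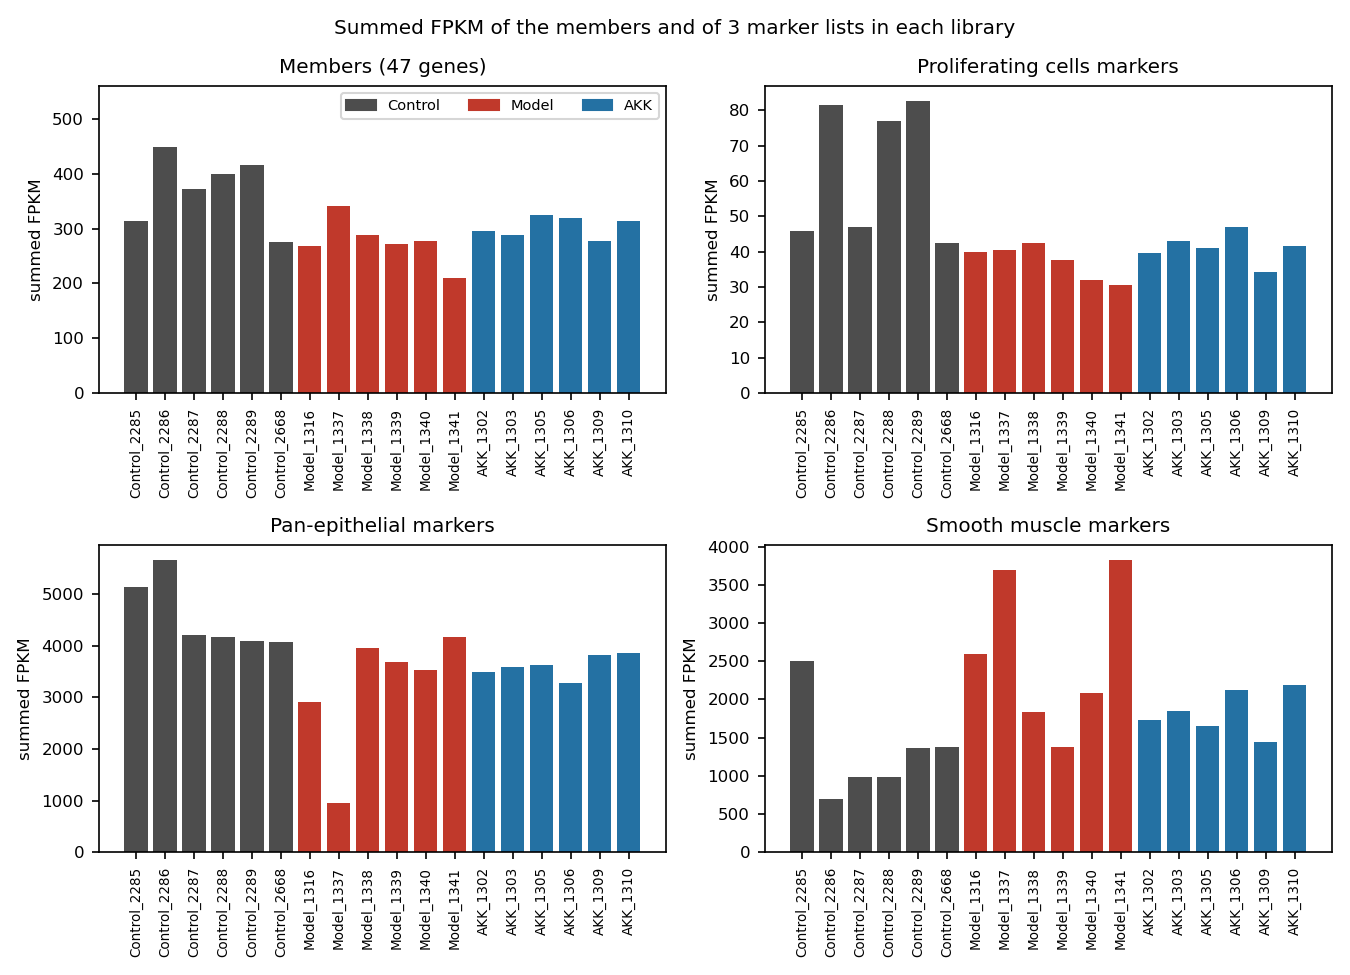
Summed FPKM in each library of the 47 genes and of markers of dividing, epithelial and smooth muscle cells; bars start at 0 and colours mark the groups. Control libraries of high marker sums for dividing cells, at 77.1 to 82.7, are also those with 399 to 448 in the 47 genes.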

How the data were processed

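Per the labels' protocols, polyadenylated colon RNA was made into strand-marked libraries and sequenced as read pairs. The submitters' processing notes name mm10 and the tools StringTie 2.1.6, HISAT2 2.2.1 and cutadapt 1.9. The authors deposited 1 table with an FPKM and an estimated count per gene and library, and the estimated counts were whole numbers. Counts of 4, 8 and 12 exceeded their neighbours in frequency by 2.36, 1.74 and 1.36 times, and counts divided by 4 were fitted as an alternative.

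The 14007 genes that reached an FPKM of 1 in 6 or more libraries were tested with edgeR 4.0.16 (quasi-likelihood test, TMM, 1 term per group, all 18 libraries). A call is a p under 0.05 after Benjamini-Hochberg adjustment over all tested genes. Levels are FPKM with SD, and changes are log2 with SE. DESeq2 1.42.0, limma 3.58.1, other scalings and filters, marker covariates and left-out libraries were alternatives. In each role, the genes with the lowest and highest p in Model against Control got full values. Leaving out Model_1337 and Model_1341 together was added after seeing the data. Ratios were tested in scipy 1.17.1. The test was tried on simulated counts. No pair of libraries within a group held identical values, and pairs across groups were not compared. The 47 genes, the lists and the tests were chosen with earlier results of these data known. R 4.3.3 and Python 3.11.15 were used.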

Additional observations from a re-analysis of the deposited data

Results flagged for a closer look

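In 141 groups of 6 libraries (47 genes in 3 groups), 5 held a library farther from the others than Dixon's 95% limit allows, and chance flags about 1 in 20. Mcm4 in Model_1337 stood at 14.8 FPKM, against 5.52 to 7.20 in the other Model libraries. Prim1 in the same library stood at 4.86, against 2.01 to 3.04. Rfc4 in Model_1341 was low at 2.84, against 5.72 to 6.69. In AKK, Mcm4 was low in AKK_1303 at 7.66, against 8.84 to 9.54, and Prim1 was high in AKK_1305 at 3.68, against 2.92 to 3.20.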

How the results depend on the processing

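No paired analysis was possible because the groups share no replicate numbers. In Model against Control, the count of 26 genes lower moved to 17 on log2(TPM + 1), 12 with only both groups fitted and 1 with smooth muscle markers as a covariate, and lay between 18 and 29 in the others. Calls over all genes went from 2811 to 1390, 939 and 172 in those 3 fits, where the median of the 47 was -0.51, -0.50 and -0.37. In the others they lay between 859 (pan-epithelial covariate) and 3567 (DESeq2). In AKK against Control, 10 moved to 1 with total counts, on log2(FPKM + 1), on log2(FPKM + 0.1), without a filter and with the smooth muscle covariate, to 0 on log2(TPM + 1) and without libraries above 70000000 counts, to 16 with the pan-epithelial covariate, 18 with only both groups fitted, 21 with DESeq2, and 26 with voom quality weights and without Model_1337 and Model_1341. Calls over all genes in AKK, 869 in the main fit, were 717, 652, 734, 378 and 373 in the fits with 1 call, in that order. They were 242 and 56 in the fits with 0. In the fits with 16 or more they were 1078, 2722, 1841, 3281 and 2563, in the order given. The median of the 47 lay between -0.41 and -0.20 in all of these. Leaving out 1 library gave 20 to 32 in Model and 1 to 26 in AKK, with 1743 to 3408 and 288 to 2132 over all genes. AKK against Model gave 0 in every setting, and no setting called any of the 47 higher against Control. The cause of these moves was not tested.

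Of all called genes, 61.8% were higher in Model with TMM and 35.4% on log2(TPM + 1). In AKK the shares were 60.0% and 84.8% with total counts. On log2(TPM + 1) the median of all genes in AKK against Model moved to 0.14, and that of the 47 was 0.23. In Model against Control, signs turned for Orc2 (-0.11 with the pan-epithelial covariate, -0.011 without Model_1337 and Model_1341, and -0.044 to 0.15 with 1 library left out), Orc4 (0.038) and Gins3 (0.021) with the smooth muscle covariate, Orc5 (0.011 with total counts, 0.041 with voom, 0.016 with the pan-epithelial and 0.10 with the smooth muscle covariate), Rfc1 (0.011 with the smooth muscle covariate) and Gins4 (-0.022 on log2(TPM + 1), -0.023 without a filter, -0.016 with filterByExpr, -0.0084 without Model_1337 and Model_1341, and -0.029 to 0.062 with 1 library left out). Signs turned in the other comparisons as well. In AKK against Control 45 of the 47 were below 0 in the main fit, and 40 on log2(FPKM + 0.1), the fewest of any setting. In AKK against Model 12 were below 0 in the main fit, and from 1 on log2(TPM + 1) to 18 without Model_1341. With 1 library left out, Rrm2 to Rrm1 in Model ran from -0.069 to 0.16, Cdt1 to Gmnn in Model from -0.18 to 0.043 and in AKK against Control from -0.039 to 0.17.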
